A study of Mus musculus with 4 samples.

Results

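Interferon-stimulated genes were examined in stem cells of mouse skin squamous cell carcinoma, sorted by whether a fluorescent reporter of transforming growth factor beta (TGF-β) signalling was on or off. The genes were 38 named members of the interferon response, taken as a given list of gene symbols, among 29810 genes named in the deposited tables. Of these, 22 were tested, among 11831 genes that reached at least 1 FPKM in at least 2 libraries. FPKM is a level of sequenced fragments corrected for transcript length and for the depth of the library.

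The reporter positive cells are labelled as having TGF-β signaling and the reporter negative cells as lacking it, and mCherry is the reporter's colour. Both fractions carried the same genotype, TetO-Hras with LV-rtTA3-TGF-beta reporter, on a strain labelled C57BL/6 X FBV. TetO-Hras places the Hras oncogene under a promoter that the rtTA3 transactivator switches on. The sources used here do not give the cell type in which rtTA3 was made, the age of the animals, or whether separate animals served the experiments. Cells came from primary tumours of skin epidermis and were selected for integrin alpha6 and CD44 after removal of other lineages. Each fraction gave 1 library in each of 2 experiments, so each group held n = 2, and a p-value reflects nothing but the spread among these 4 libraries, which may be technical.

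Interferons are secreted proteins that bind cell surface receptors and signal through JAK kinases and STAT transcription factors. Type I and type III interferons activate a complex that holds STAT2 and IRF9 and binds the interferon-stimulated response element, and interferon gamma acts through the gamma-activated site. The genes they switch on block virus replication, raise antigen presentation and recruit immune cells, and epithelial and tumour cells keep many of them at a low basal level without infection.

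Depth recovered from coverage was 3.54 and 3.28 gigabases aligned for reporter positive cells in experiments 1 and 2, against 3.12 and 3.74 gigabases for reporter negative cells. The number of reads is unknown. Epcam, an epithelial adhesion protein, was at 29.4 and 25.5 FPKM in reporter positive libraries, against 45.9 and 51.0 FPKM in reporter negative ones. The sorting marker Itga6 was at 181 and 205 FPKM in reporter positive libraries, against 331 and 410.4 FPKM in reporter negative ones, and Cd44 was at 88.0 and 81.3 FPKM in reporter positive libraries, against 81.5 and 112 FPKM in reporter negative ones. Epithelial markers did not all go one way, since Perp, a desmosome protein, was at 2719.7 and 2702 FPKM in reporter positive libraries, against 1543 and 1401 FPKM in reporter negative ones. Markers of other cell types that the sort could hold are given further on. In such bulk libraries, fewer cells of a type and less RNA per cell cannot be told apart.

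The promoters show which members carry the binding letters of these pathways. A window of 250 bases before to 50 bases after the annotated start was available from RefSeq (GRCm38.p6) for 30 of the 38 members. It was searched on both strands for GAAA, then any 2 bases, then GAAA again, which is the core of the interferon-stimulated response element, and for TTCNNNGAA, the gamma-activated site, which reads alike on both strands. The response element occurred in 15 of the 30 member windows (50%), against 3.99% of 27025 genes with a window of the same length. The gamma-activated site occurred in 8 of 30 (26.7%), against 9.55% of genes. A match describes these letters only and does not show that a factor binds there. Dhx58, Oas2, Mx1, Mx2, Usp18, Gbp4, Parp9 and Parp14 were the members without a window.

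The longest stretches shown are upstream of Isg15, Cxcl10 and Irf1, members with large differences between the fractions. They are printed in the direction of transcription and end at the base before the start, with motif letters in capitals. The Isg15 stretch (chr4:156200819-156200968, minus strand) holds 3 overlapping response elements, the Cxcl10 stretch (chr5:92348890-92349139, minus strand) holds 1 response element, and the Irf1 stretch (chr11:53769864-53770013, plus strand) holds 1 gamma-activated site. All coordinates of sequences are GRCm38.p6, while gene positions given further on are mm9, the build of the deposited tables.
Isg15: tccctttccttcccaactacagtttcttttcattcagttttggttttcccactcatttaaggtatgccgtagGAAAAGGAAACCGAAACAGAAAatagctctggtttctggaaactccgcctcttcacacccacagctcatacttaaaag
Cxcl10: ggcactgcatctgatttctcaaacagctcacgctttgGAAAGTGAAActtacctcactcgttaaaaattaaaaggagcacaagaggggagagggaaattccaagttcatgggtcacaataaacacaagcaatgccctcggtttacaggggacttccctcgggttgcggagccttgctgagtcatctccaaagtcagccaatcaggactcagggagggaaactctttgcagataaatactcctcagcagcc
Irf1: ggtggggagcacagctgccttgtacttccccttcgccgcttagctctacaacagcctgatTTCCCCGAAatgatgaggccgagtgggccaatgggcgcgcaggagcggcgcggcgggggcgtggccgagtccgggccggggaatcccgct

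Shorter stretches compare the response element across further members, again with the motif in capitals. They lie at chr10:128270264-128270297 (Stat2, plus strand), chr19:34640773-34640825 (Ifit1, plus strand), chr5:120907526-120907557 (Oas1a, minus strand), chr3:142620592-142620625 (Gbp2, plus strand) and chr3:142559987-142560026 (Gbp3, plus strand). In Stat2, Ifit1, Gbp2 and Gbp3 the letters lie on the opposite strand, so they read TTTC, 2 bases and TTTC in the direction of transcription. Ifit1 holds 2 separate elements, and those of Oas1a and Gbp3 overlap in pairs.
Stat2: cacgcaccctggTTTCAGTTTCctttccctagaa
Ifit1: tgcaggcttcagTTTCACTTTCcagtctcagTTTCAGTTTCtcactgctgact
Oas1a: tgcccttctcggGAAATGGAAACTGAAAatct
Gbp2: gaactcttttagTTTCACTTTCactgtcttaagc
Gbp3: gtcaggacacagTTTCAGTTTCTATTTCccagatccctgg

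**Figure D1:**
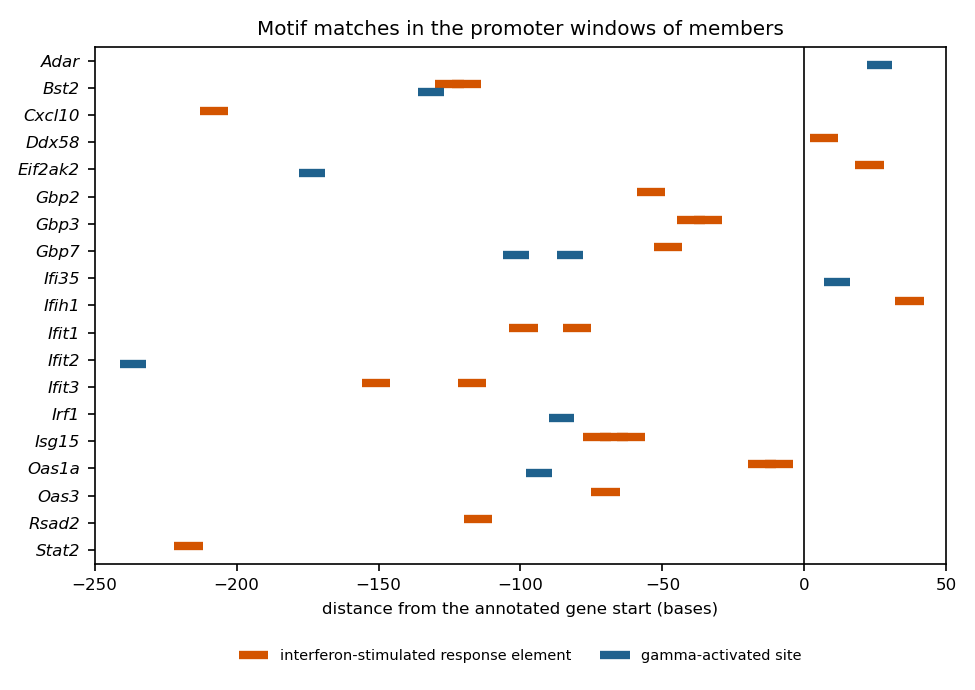
Motif matches in the promoter windows of the 19 members that have one. The horizontal axis is the distance from the annotated gene start in bases, and orange and blue bars mark the interferon-stimulated response element and the gamma-activated site; matches in Isg15, Oas1a, Gbp2, Gbp3, Gbp7, Irf1, Ifit1 and Oas3 lie just upstream of the start.

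As a group, the members were lower in reporter positive cells. The list was chosen with earlier results of these data known, so the shares given here describe it and are no independent support. Of 37 members above 0 in any library, 34 (91.9%) were lower in the reporter positive library in both experiments, against 45.4% of all 19368 genes above 0. Both reporter positive libraries lay below both reporter negative ones for 28 members (75.7%), against 35.8% of genes. Oasl1 alone showed the opposite order, which 13.7% of genes had, and the other 8 members overlapped. Ifi35 is among the 34 and the 28, and Eif2ak2 among the 8, although their listed zeros cannot be read as levels. With median-of-ratios scaling in place of the deposited scaling, 30 members (81.1%) were lower in both experiments, against 31.2% of genes. With quantile normalization the count was also 30, against 33.0% of genes.

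Most members were weakly expressed in both fractions. The median over the 38 members was 0.460 and 0.818 FPKM in the reporter positive libraries, against 1.26 and 2.09 FPKM in the reporter negative ones. Members at 1 FPKM or more numbered 15 and 17 in the reporter positive libraries, against 23 and 22 in the reporter negative ones. Their summed level was 53.4 and 57.2 FPKM in reporter positive libraries, against 99.98 and 120.3 FPKM in reporter negative ones. All 3 of these summaries were lower in each reporter positive library than in either reporter negative one. The sums take in Ifi35 and Eif2ak2, whose listed zeros cannot be read as levels, as described below. Ifi35 added 16.3 and 13.7 FPKM to the reporter negative sums and 0 to the reporter positive ones. Eif2ak2 added 14.2 FPKM to reporter positive experiment 1 alone. The tested members alone had a median of 1.18 and 1.39 FPKM in reporter positive libraries and of 3.48 and 3.62 FPKM in reporter negative ones. The median over all tested genes was 9.91 and 10.3 FPKM in reporter positive libraries, against 10.8 and 12.5 FPKM in reporter negative ones.

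**Figure D2:**
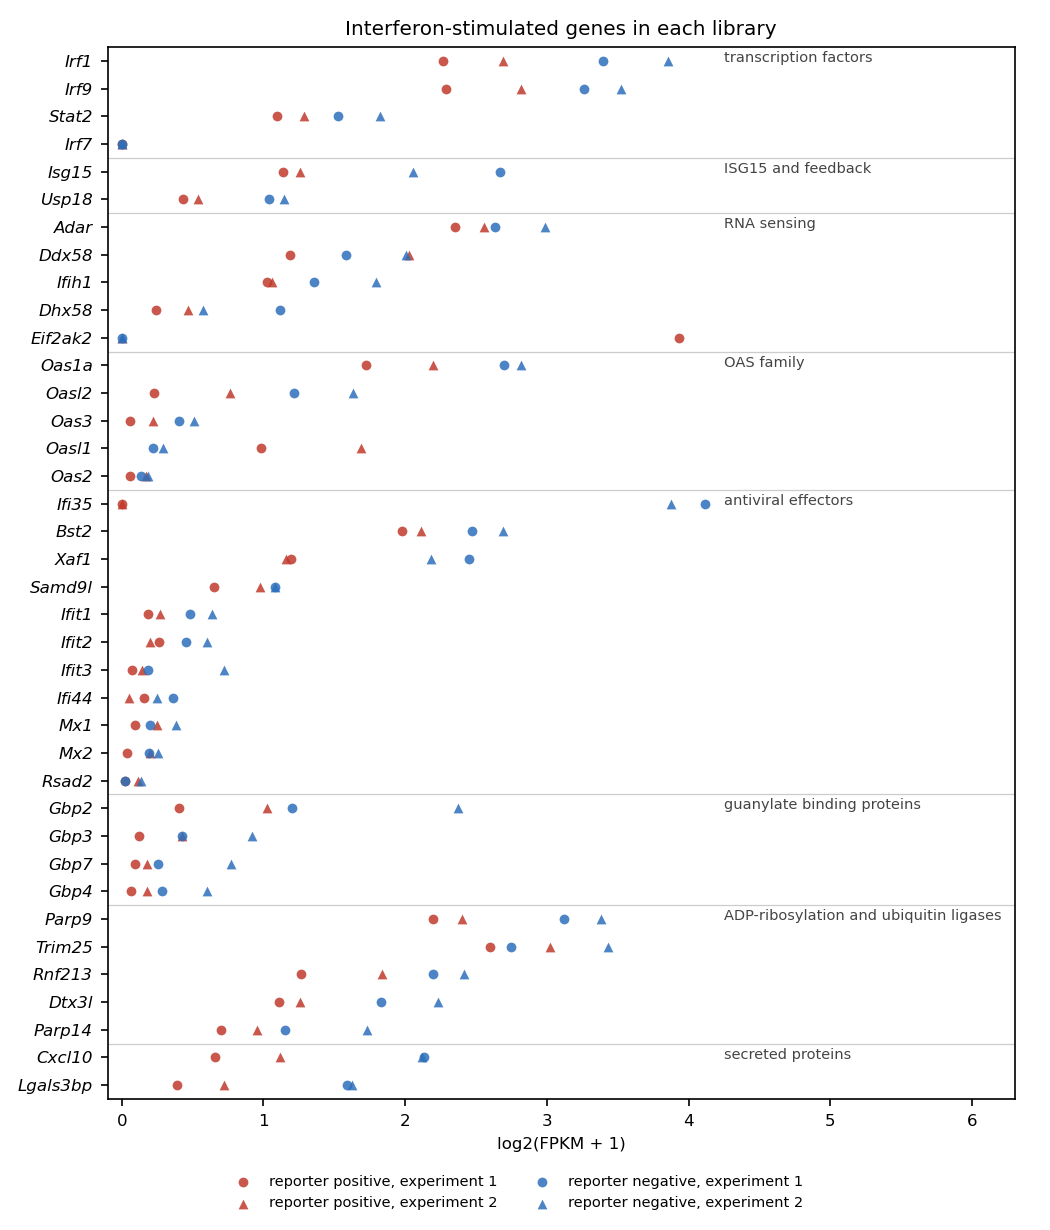
Level of each of the 38 members in each library on the log2(FPKM + 1) axis, with members grouped by role, red for reporter positive, blue for reporter negative, circles for experiment 1 and triangles for experiment 2. Red symbols lie left of blue ones for 28 members, Oasl1 shows the reverse, and Irf7 lies at 0 in all 4 libraries.

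Few members passed the test on their own. Changes are reporter positive minus reporter negative on the log2(FPKM + 1) scale, which understates the change of low genes. By limma with Benjamini-Hochberg adjustment over all tested genes at a threshold of 0.05, 2 of the 22 tested members were lower (Ifi35 and Xaf1), 0 were higher and 20 did not pass. Of all tested genes 2.76% were called lower, 2.72% higher and 5.49% in either direction. At an unadjusted limma p under 0.05, 14 of the 22 tested members were lower, against 18.2% of all tested genes. With the experiment number as a replicate block, 6 members were lower (Irf1, Parp9, Cxcl10, Lgals3bp, Xaf1 and Ifi35), against 6.96% of tested genes, and 0 were higher, against 4.35%. With that block and median-of-ratios scaling together, Ifi35 alone passed. These counts include members that had passed the filter only through the reporter negative libraries and so had to be lower. They are Ifi35 in each count, Lgals3bp at the unadjusted p and with the block, and Usp18 and Oasl2 at the unadjusted p. No exact permutation test was run, since 2 libraries against 2 allow no p under 0.333.

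The size of the change was described by medians, with no test over the list. The tested members had a median change of -0.82, with -0.86 in experiment 1 and -0.75 in experiment 2, beside a median of -0.18 over all tested genes, with -0.13 and -0.24 in experiments 1 and 2. Relative to all tested genes, the member median stood at -0.64. Median-of-ratios scaling moved the median of all genes to 0.03 and the member median to -0.62, a difference of -0.65. Without Ifi35 and with the deposited scaling, the 21 other tested members had a median change of -0.80, with -0.80 and -0.73 in experiments 1 and 2. Of the 22 tested members, 6 (Ifi35, Lgals3bp, Oasl2, Usp18, Parp14 and Samd9l) had passed the filter only through the reporter negative libraries and had to be lower, so these figures carry no support of their own. All 22 fitted changes were below 0, beside 69% of tested genes. Among them 21 were lower in both experiments (54.3% of tested genes), 20 had both reporter positive libraries below both reporter negative ones (42.8%) and 0 had them above (15.3%). Among the 15 members that were above 0 but not tested, 13 were lower in both experiments, against 31.3% of such genes. Of these 15, 8 had both reporter positive libraries below both reporter negative ones, against 24.8%, and Oasl1 had them above, against 11.3%.

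**Figure D3:**
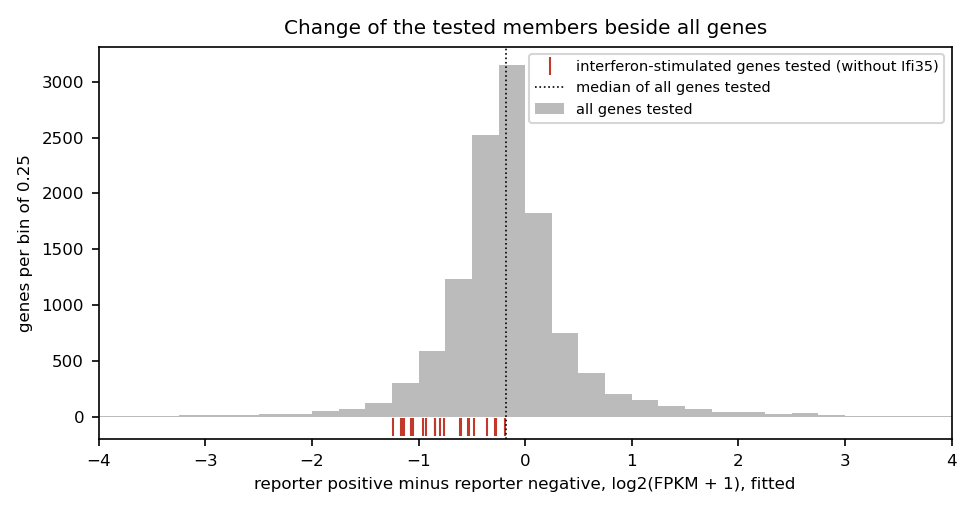
Fitted change of every tested gene (grey bars, genes per bin of 0.25 on the log2(FPKM + 1) axis) with the 21 tested members other than Ifi35 as red ticks under the bars. The ticks run between -1.24 and -0.19 and the dotted line marks the median of all tested genes at -0.18; 23 genes beyond 4 on either side are not drawn.

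Of the 4 transcription factors, Irf1, Irf9 and Stat2 had lower values in reporter positive libraries in both experiments without passing in the fit without the replicate block, and Irf7 gave no level. Irf1 (chr11:53583516-53591876), a factor induced by interferon gamma, was at 3.80 and 5.44 FPKM in reporter positive libraries, against 9.53 and 13.5 FPKM in reporter negative ones. The groups did not overlap, and reporter negative experiment 2 was the highest library. The Irf1 change was -1.15 ± 0.26 (SE) with a limma adjusted p of 0.0777 (Benjamini-Hochberg), and 0.0270 with the replicate block. Its mean was 4.62 ± 1.16 FPKM in reporter positive libraries and 11.5 ± 2.79 FPKM in reporter negative ones (SD, n = 2 each).

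Irf9 (chr14:56222408-56228867), the DNA-binding partner of STAT2, was at 3.89 and 6.04 FPKM in reporter positive libraries, against 8.61 and 10.5 FPKM in reporter negative ones. Stat2 (chr10:127707632-127729905) was at 1.14 and 1.44 FPKM in reporter positive libraries, against 1.87 and 2.53 FPKM in reporter negative ones. Neither pair of groups overlapped, with changes of -0.84 ± 0.25 for Irf9 and -0.48 ± 0.22 for Stat2. Neither passed, with limma adjusted p (Benjamini-Hochberg) of 0.126 and 0.248. Irf7 (chr7:148448605-148452380), which drives interferon production, was listed at 0 in all 4 libraries. Its level could not be read, since the tables mark 2 of its 13 transcripts as fully covered by reads in each reporter positive library, and 4 and 5 in the reporter negative ones.

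The ubiquitin-like modifier Isg15 and its protease were both lower in reporter positive cells without passing. Isg15 (chr4:155573533-155574927, minus strand), which is conjugated to newly made proteins, was at 1.20 and 1.40 FPKM in reporter positive libraries, against 5.37 and 3.15 FPKM in reporter negative ones. Its change was -1.16 ± 0.27 (limma adjusted p = 0.0832, Benjamini-Hochberg), with -1.53 in experiment 1 and -0.79 in experiment 2. In all 4 libraries its FPKM lay on a single reference transcript, downstream of the 3 overlapping response elements printed above. Usp18 (chr6:121195924-121220934), which removes ISG15 and dampens the type I receptor, was at 0.351 and 0.455 FPKM in reporter positive libraries, against 1.05 and 1.21 FPKM in reporter negative ones. The Usp18 differences were -0.60 in each experiment (limma adjusted p = 0.143, Benjamini-Hochberg).

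The 3 tested genes of RNA sensing had a median change of -0.36, beside -0.82 over all tested members, a difference that was not tested. Ifih1, the sensor MDA5 of long double-stranded RNA, was at 1.04 and 1.09 FPKM in reporter positive libraries, against 1.56 and 2.46 FPKM in reporter negative ones. Adar, which edits double-stranded RNA, was at 4.11 and 4.89 FPKM in reporter positive libraries, against 5.22 and 6.92 FPKM in reporter negative ones. Both were separate between groups and neither passed, with changes of -0.53 and -0.36. Ddx58, the sensor RIG-I, was at 1.28 and 3.08 FPKM in reporter positive libraries, against 2.0 and 3.02 FPKM in reporter negative ones. Those groups overlapped, its fitted change was -0.19 ± 0.35, and that turned to 0.03 under quantile normalization. Dhx58, the regulatory sensor LGP2, was at 0.180 and 0.380 FPKM in reporter positive libraries, against 1.17 and 0.491 FPKM in reporter negative ones, too low to test.

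Eif2ak2 (chr17:79251904-79281913), the kinase PKR that stops translation on binding double-stranded RNA, was at 14.2 FPKM in reporter positive experiment 1 and listed at 0 in the other 3 libraries. The value lay on an assembled transcript of 5396 bases, which the other libraries did not have. Fully covered transcripts of Eif2ak2 numbered 3 and 3 in reporter positive libraries and 4 and 4 in reporter negative ones, so a 0 there does not mean that no reads were found. Other genes that overlap Eif2ak2 on the same strand summed to 0 FPKM in every library. The processed pseudogene Gm6548, not among those, was at 130.0 and 134 FPKM in reporter positive libraries, against 128 and 149.8 FPKM in reporter negative ones. Whether Gm6548 bears on the zeros of Eif2ak2 was not tested. No change is given for Eif2ak2.

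The oligoadenylate synthetase family, which senses double-stranded RNA and activates RNase L, split in direction. Oasl1 (chr5:115373249-115387924), a member without synthetase activity that represses Irf7 translation in mouse, was at 0.978 and 2.22 FPKM in reporter positive libraries, against 0.163 and 0.224 FPKM in reporter negative ones. Its differences were 0.77 in experiment 1 and 1.39 in experiment 2, and it did not reach the level for testing. Of its FPKM, 79.8% and 18.3% lay on named reference transcripts in the reporter positive libraries, against 100% and 0% in the reporter negative ones, the rest being placed by overlap. Its neighbour Oasl2 (chr5:115346945-115362243), an active synthetase in mouse, was at 0.169 and 0.700 FPKM in reporter positive libraries, against 1.32 and 2.10 FPKM in reporter negative ones. The Oasl2 change was -0.93 ± 0.29 (limma adjusted p = 0.134, Benjamini-Hochberg).

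Oas1a (chr5:121346265-121357530) was the most abundant of the family, at 2.31 and 3.58 FPKM in reporter positive libraries, against 5.48 and 6.05 FPKM in reporter negative ones. The groups were separate, with a change of -0.80 ± 0.24 (limma adjusted p = 0.125, Benjamini-Hochberg). Named Oas1a transcripts held at most 19.98% of that FPKM in any library, and reads of the near-identical Oas1g may be split with it, so its level is uncertain. Oas3 was at 0.0432 and 0.167 FPKM in reporter positive libraries, against 0.324 and 0.424 FPKM in reporter negative ones. Oas2, at 0.0423 and 0.124 FPKM in reporter positive libraries and 0.101 and 0.137 FPKM in reporter negative ones, overlapped between groups.

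Among the antiviral effectors, Xaf1 and Ifi35 passed. Xaf1 (chr11:72115131-72127235), which binds the apoptosis inhibitor XIAP, was at 1.28 and 1.24 FPKM in reporter positive libraries, against 4.47 and 3.54 FPKM in reporter negative ones. It fell by 1.14 on the log2(FPKM + 1) scale (SE 0.20, limma adjusted p = 0.0496, Benjamini-Hochberg), with -1.26 and -1.02 in experiments 1 and 2. The call rested just inside the threshold. It was lost when any 1 of the 4 libraries was left out, with limma adjusted p of 0.255 and 0.288 without reporter positive experiment 1 and 2, and 0.0876 and 0.101 without reporter negative experiment 1 and 2. It was also lost on reference transcripts alone (adjusted p = 0.225) and under both other scalings (0.0717 with median-of-ratios, 0.0950 with quantile).

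Ifi35 (chr11:101309721-101320012), which pairs with the interferon-induced protein NMI, was listed at 0 in both reporter positive libraries, against 16.3 and 13.7 FPKM in the reporter negative ones. It passed limma (adjusted p = 0.00421, Benjamini-Hochberg), but no fold is given, because in each library, those at 0 included, 2 of its 3 transcripts carry the mark of full read coverage. Across tested genes, 459 were listed at 0 in at least 1 library. Zeros of this form occurred in both directions. In all, 20 genes stood at 0 in both reporter positive libraries with 5 FPKM or more in both reporter negative ones, and 16 genes showed the reverse.

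The other effectors were low. Bst2, tetherin, which holds budding virus at the cell surface, was at 2.94 and 3.32 FPKM in reporter positive libraries, against 4.55 and 5.44 FPKM in reporter negative ones, and did not pass (change -0.54 ± 0.20). Samd9l, a restraint on cell growth, was at 0.568 and 0.962 FPKM in reporter positive libraries, against 1.12 and 1.12 FPKM in reporter negative ones. The Ifit proteins bind foreign RNA ends, and Ifit1 was at 0.136 and 0.204 FPKM in reporter positive libraries, against 0.396 and 0.558 FPKM in reporter negative ones. All 3 were separate between groups by these values.

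Ifit2 and Ifit3 act in complexes with Ifit1, and both were below in reporter positive libraries. Ifit2 was at 0.200 and 0.15 FPKM in reporter positive libraries, against 0.368 and 0.519 FPKM in reporter negative ones. Ifit3 was at 0.0536 and 0.106 FPKM in reporter positive libraries, against 0.135 and 0.649 FPKM in reporter negative ones. Ifi44, of unsettled role, was likewise separate, at 0.113 and 0.0338 FPKM in reporter positive libraries, against 0.283 and 0.187 FPKM in reporter negative ones. Mx1 and Mx2, of a family of dynamin-like GTPases, overlapped between groups. Mx2 is annotated as a polymorphic pseudogene, and whether either gene makes a working protein in these cells was not measured. Mx1 was at 0.0663 and 0.188 FPKM in reporter positive libraries, against 0.146 and 0.305 FPKM in reporter negative ones, and Mx2 was at 0.0250 and 0.148 FPKM in reporter positive libraries, against 0.142 and 0.196 FPKM in reporter negative ones. Rsad2 (viperin), a radical SAM enzyme, also overlapped, at 0.0156 and 0.0841 FPKM in reporter positive libraries, against 0.0176 and 0.101 FPKM in reporter negative ones. None of the 7 untested effectors exceeded 0.649 FPKM in a library, and the distance from a transcript's value to its interval bounds had a median of 50.6% among untested members. With no filter on low values these 7 entered the limma fit, and none passed.

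The guanylate binding proteins, GTPases that attack the vacuoles of intracellular microbes, gave 1 tested member, which did not pass, and 3 that were too low to test. Gbp2 (chr3:142283566-142300972) was at 0.326 and 1.03 FPKM in reporter positive libraries, against 1.30 and 4.18 FPKM in reporter negative ones. Its change was the least precise of the tested members, at -1.07 ± 0.46 (limma adjusted p = 0.227, Benjamini-Hochberg). Gbp3 was at 0.0857 and 0.345 FPKM in reporter positive libraries, against 0.342 and 0.889 FPKM in reporter negative ones, with an overlap at the edge.

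Gbp7 was at 0.0680 and 0.130 FPKM in reporter positive libraries, against 0.196 and 0.703 FPKM in reporter negative ones, and Gbp4 was at 0.0453 and 0.129 FPKM in reporter positive libraries, against 0.216 and 0.516 FPKM in reporter negative ones. In all 4 of these genes experiment 2 was higher than experiment 1 within each fraction, and the reporter positive library was below its reporter negative partner in both experiments. Gbp7, Gbp3 and Gbp2 lie side by side on chromosome 3, and each carries a response element in its promoter window.

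The ADP-ribosylation and ubiquitin ligase members included a head-to-head gene pair with changes of similar size. Parp9 (chr16:35938556-35972691, plus strand), an ADP-ribosyltransferase family member that works in a complex with the ubiquitin ligase DTX3L, was at 3.59 and 4.28 FPKM in reporter positive libraries, against 7.71 and 9.43 FPKM in reporter negative ones. Its change was -0.95 ± 0.20, with a limma adjusted p of 0.0681 (Benjamini-Hochberg), and 0.0412 with the replicate block. Dtx3l (chr16:35926597-35939237, minus strand) was at 1.16 and 1.39 FPKM in reporter positive libraries, against 2.56 and 3.70 FPKM in reporter negative ones. Its change was -0.85 ± 0.23 (limma adjusted p = 0.106, Benjamini-Hochberg). The 2 genes overlap on opposite strands at their starts, so reads there cannot be told apart unless the counting used strand, which the sources used here do not say.

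Parp14 (chr16:35832960-35871630), their neighbour and a mono-ADP-ribosyltransferase, was at 0.626 and 0.936 FPKM in reporter positive libraries, against 1.23 and 2.31 FPKM in reporter negative ones. Rnf213 (chr11:119254414-119348732), a large ubiquitin ligase that coats intracellular bacteria, was at 1.40 and 2.56 FPKM in reporter positive libraries, against 3.58 and 4.33 FPKM in reporter negative ones. Its change of -0.76 ± 0.27 did not pass (limma adjusted p = 0.168, Benjamini-Hochberg) and turned to 0.13 when only named reference transcripts were summed. Trim25, the ligase that acts with RIG-I, overlapped between groups at 5.04 and 7.12 FPKM in reporter positive libraries, against 5.70 and 9.80 FPKM in reporter negative ones.

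Both secreted members were lower in reporter positive cells. Cxcl10 (chr5:92775664-92777915, minus strand), a chemokine that attracts activated T cells, was at 0.579 and 1.17 FPKM in reporter positive libraries, against 3.39 and 3.34 FPKM in reporter negative ones. Its mean was 0.873 ± 0.417 FPKM in reporter positive libraries and 3.37 ± 0.0376 FPKM in reporter negative ones (SD, n = 2 each). The change was -1.24 ± 0.24, with a limma adjusted p of 0.0561 (Benjamini-Hochberg), and 0.0392 with the replicate block. All of its FPKM lay on 1 reference transcript in each library.

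Lgals3bp (chr11:118254065-118263406), a secreted glycoprotein that binds galectins, was at 0.312 and 0.646 FPKM in reporter positive libraries, against 2.01 and 2.09 FPKM in reporter negative ones. Its change was -1.05 ± 0.22, with a limma adjusted p of 0.0638 (Benjamini-Hochberg), and 0.0464 with the replicate block. Cxcl10 and Lgals3bp were each close together in the reporter negative libraries, and in the reporter positive ones experiment 2 was above experiment 1.

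**Figure D4:**
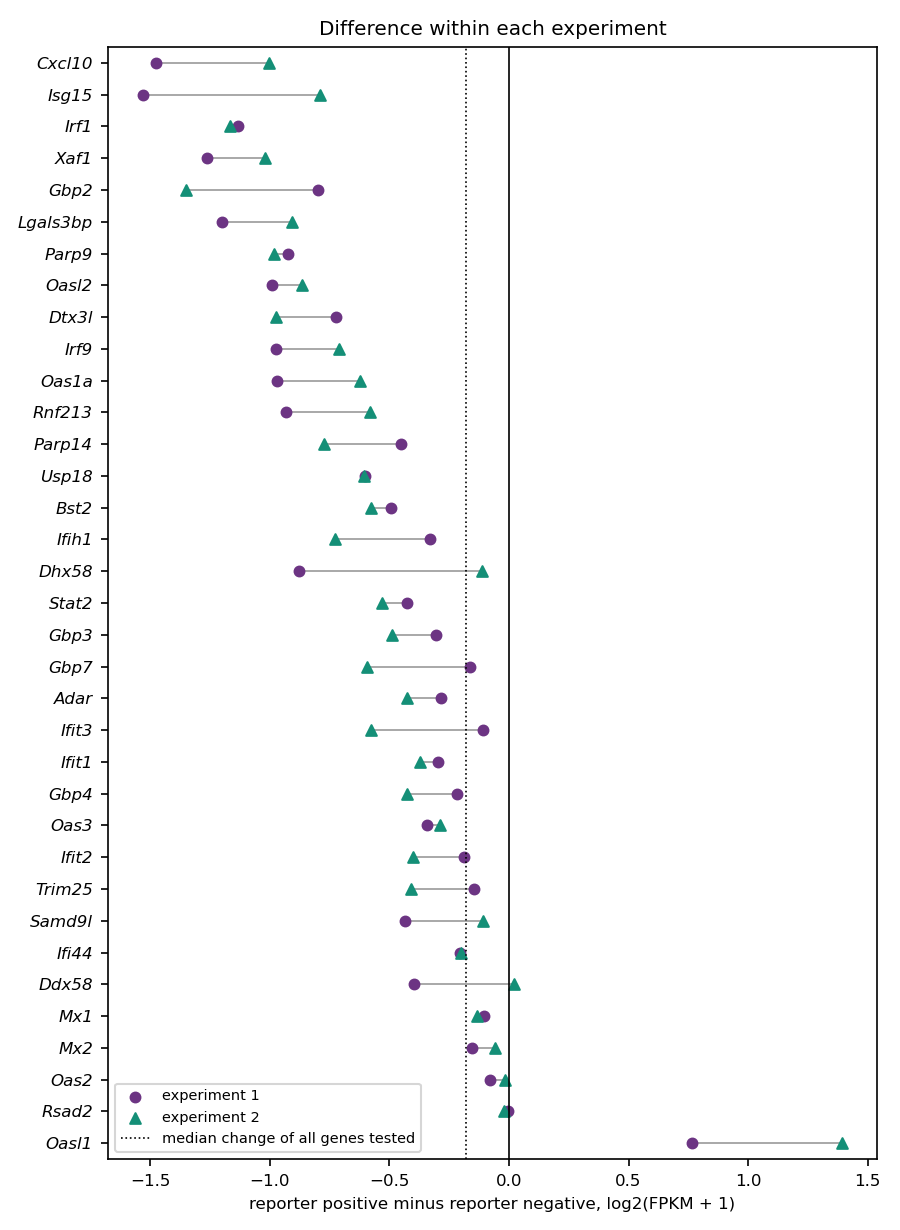
Difference between the reporter positive and reporter negative library within experiment 1 (circles) and experiment 2 (triangles) on the log2(FPKM + 1) scale, for the 35 members above 0 in every library. Differences lie below 0 in both experiments for 33 of them, Ddx58 reaches 0.02 in experiment 2, and Oasl1 lies at 0.77 and 1.39.

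The rest of the interferon pathway was described from lists of genes that are not members. All 10 interferon ligand genes were too low to test, and 7 were listed at 0 in every library. Ifnk, the keratinocyte interferon, was highest among them at 0.0888 and 0.668 FPKM in reporter positive libraries, against 0.0501 and 0 FPKM in reporter negative ones. Interferon made by other cells of the tumour was not measured.

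Among 17 receptor and JAK-STAT genes, 1 was lower (2.76% of tested genes), 0 were higher (2.72%) and 16 did not pass. Their median change was -0.17, beside -0.18 over all tested genes. The list pools receptor chains with kinases, STATs and inhibitors. Both reporter positive libraries lay below both reporter negative ones for 8 genes (42.8% of tested genes) and above for 3 (15.3%). The 8 include every receptor chain listed, with changes of -0.58 (Ifnar1), -0.82 (Ifngr1), -0.50 (Ifngr2), -0.50 (Ifnlr1), -0.17 (Il10rb) and -1.08 (Ifnar2). The gene called lower was Ifnar2, a chain of the type I receptor, at 6.27 and 6.84 FPKM in reporter positive libraries, against 16.7 and 13.3 FPKM in reporter negative ones (change -1.08 ± 0.19, limma adjusted p = 0.0482, Benjamini-Hochberg). The Ifnar2 call held in 5 of 16 alternative settings and in 0 of the 4 fits with 1 library left out. With the replicate block 3 genes were lower, against 6.96% of tested genes, and Ifngr1, a chain of the interferon gamma receptor, was among them. Ifngr1 was at 11.99 and 11.6 FPKM in reporter positive libraries, against 20.7 and 22.7 FPKM in reporter negative ones. Its limma adjusted p (Benjamini-Hochberg) was 0.0390 with the block, and 0.0513 without it. Socs1, an inhibitor of JAK signalling, was above in reporter positive cells without passing, at 7.65 and 7.86 FPKM in reporter positive libraries, against 3.57 and 4.21 FPKM in reporter negative ones (limma adjusted p = 0.0722, Benjamini-Hochberg, and 0.0338 with median-of-ratios scaling).

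Among 13 tested genes of nucleic acid sensing and IRF activation, 11 did not pass. Of the 13, 1 passed as higher, against 2.72% of all tested genes, and 1 as lower, against 2.76%. The median change of the 13 was -0.18. Samhd1, which depletes deoxynucleotides and restrains nucleic acid sensing, rose by 1.63 on the log2(FPKM + 1) scale (SE 0.13, limma adjusted p = 0.0121, Benjamini-Hochberg). Samhd1 was at 49.0 and 48.9 FPKM in reporter positive libraries, against 15.4 and 14.8 FPKM in reporter negative ones. Tmem173 (STING), the adaptor of cytosolic DNA sensing, fell by 2.19 on the log2(FPKM + 1) scale (SE 0.29, limma adjusted p = 0.0305, Benjamini-Hochberg). It was at 0.326 and 1.01 FPKM in reporter positive libraries, against 5.53 and 7.49 FPKM in reporter negative ones. The Samhd1 call held in 12 and the Tmem173 call in 9 of 16 alternative settings, and of the 4 fits without 1 library Samhd1 passed in 1 and Tmem173 in 0.

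Among 20 tested interferon-stimulated genes outside the member list, 4 were lower, 1 was higher and 15 did not pass, with a median change of -0.74. Of all tested genes, 2.76% were called lower and 2.72% higher. Of the 20, 3 had passed the filter only through the reporter negative libraries and had to be lower, so that median carries no support of its own. Ifitm3, a membrane protein that blocks virus entry, was at 95.7 and 92.6 FPKM in reporter positive libraries, against 296 and 324 FPKM in reporter negative ones (limma adjusted p = 0.0115, Benjamini-Hochberg). Its relative Ifitm2 was at 113 and 98.7 FPKM in reporter positive libraries, against 217 and 209 FPKM in reporter negative ones (adjusted p = 0.0337). Ifi27l2a fell by 2.36 on the log2(FPKM + 1) scale and Ifi27 fell by 1.89, with limma adjusted p of 0.0124 and 0.0174. Slfn2, a regulator of lymphocyte quiescence in mouse, was the gene that rose, at 13.3 and 12.6 FPKM in reporter positive libraries against 1.95 and 1.54 FPKM in reporter negative ones (change 2.35 ± 0.19, adjusted p = 0.0117). Each of these 5 genes kept its direction in 16 alternative settings, and the calls held in 13 of them for Ifitm3, 12 for Slfn2, 10 for Ifi27 and Ifi27l2a and 8 for Ifitm2. Of the 4 fits without 1 library, Ifitm3 and Slfn2 passed in 1 and the other 3 genes in 0.

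**Figure D5:**
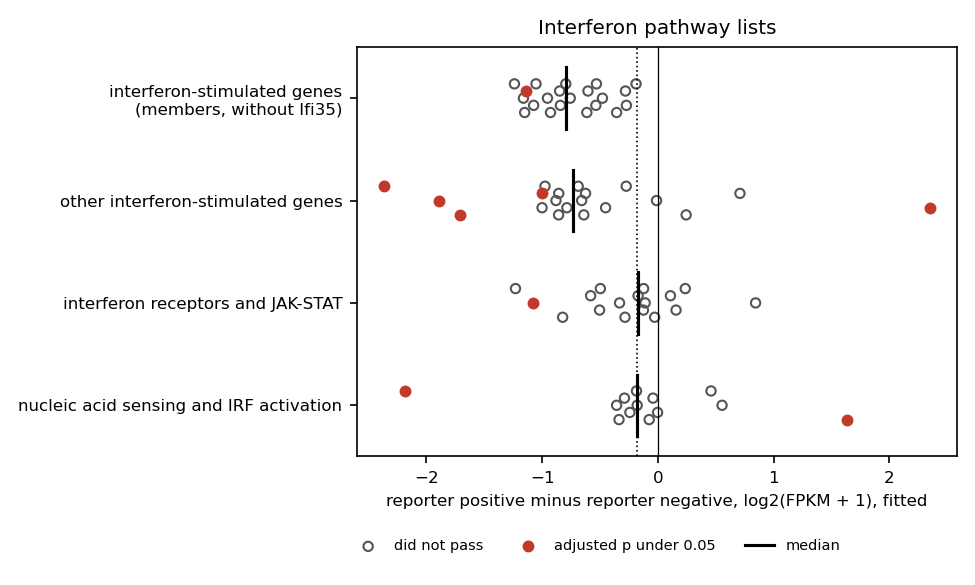
Fitted change of the 21 tested members other than Ifi35 and of tested genes in 3 pathway lists, on the log2(FPKM + 1) scale. Positive values are higher in reporter positive cells. Filled red points passed, open points did not, black bars are medians and the dotted line is the median of all tested genes. Both lists of interferon-stimulated genes have medians below -0.7, and each holds genes that passed the filter only through the reporter negative libraries. The receptor and JAK-STAT list, which pools receptor chains with kinases, STATs and inhibitors, has a median of -0.17, and the sensing list one of -0.18.

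Of the markers of other cells, fibroblast and endothelial sums were below in reporter positive libraries, while the leukocyte and myeloid sum was above. The summed level of 7 fibroblast markers was 13.3 and 29.3 FPKM in reporter positive libraries, against 42.2 and 73.6 FPKM in reporter negative ones. Of the 6 tested, 2 were lower with the replicate block, against 6.96% of tested genes, and 1 without it, against 2.76%. The gene called lower without the block was Thy1, at 0.521 and 1.80 FPKM in reporter positive libraries, against 15.2 and 32.5 FPKM in reporter negative ones (limma adjusted p = 0.0306, Benjamini-Hochberg). The 5 endothelial markers summed to 2.82 and 2.90 FPKM in reporter positive libraries, against 4.72 and 10.7 FPKM in reporter negative ones. Both sums were below in each reporter positive library. Leaving out Thy1 was a choice made after seeing the data. The fibroblast sum was then 12.8 and 27.5 FPKM in reporter positive libraries, against 26.9 and 41.1 FPKM in reporter negative ones. Its groups overlapped, and it was lower within each experiment. Thy1, Col1a1 and Col1a2 had both reporter positive libraries below both reporter negative ones, and the other 3 tested fibroblast markers overlapped. The 2 tested and 3 untested endothelial markers also lay below. Of all genes, 42.8% of those tested and 24.8% of those above 0 but not tested did so. The 11 leukocyte and myeloid markers summed to 16.0 and 27.7 FPKM in reporter positive libraries, against 13.0 and 13.0 FPKM in reporter negative ones.

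The 8 markers of T, NK and B cells summed to 0.0872 and 0.261 FPKM in reporter positive libraries, against 0.154 and 0.188 FPKM in reporter negative ones, and 2 of them, Cd247 and Ncr1, were listed at 0 in every library. The 8 epithelial markers with a value summed to 6447 and 6605 FPKM in reporter positive libraries, against 4084 and 4069 FPKM in reporter negative ones, and none of the 8 passed. With the replicate block 2 of them were higher, against 4.35% of tested genes, and 3 were lower, against 6.96%. The epithelial sum was mostly Perp and Sfn, at 2719.7 and 2882.6 FPKM in reporter positive experiment 1, against 1543 and 1648 FPKM in reporter negative experiment 1. Of the 8 markers, 3 had both reporter positive libraries above both reporter negative ones, against 15.3% of tested genes. Another 3 had them below, against 42.8%, and 2 overlapped. The sum therefore does not give the direction of epithelial markers in general. The part of these markers in the difference of the interferon-stimulated genes was not tested.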

How the data were processed

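Per the labels' protocols, an Illumina kit for mRNA was used on RNA of sorted tumour stem cells. Titles gave the reporter state, with 2 reporter positive and 2 reporter negative libraries. Per the submitters' processing notes the authors used TopHat, Cufflinks and build mm9, in versions not given in the sources used here. Deposited tables give each transcript an FPKM value, its interval and its coverage, per the file headers. They also hold a score column, which the authors deposited and which was not analysed here.

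Transcripts of at least 200 exonic bases were summed per gene; shorter ones carried 95.1% to 98.9% of all FPKM. The tables hold 96734 reference transcripts. Transcript identifiers named 84047 of them and gene identifiers 1993, through GENCODE M21, a source of names alone because its build differs. Others, and assembled transcripts, went to the same-strand gene that held at least 50% of their exons, which placed 12.1% to 13.6% of the remaining FPKM. Irf8, Mb21d1, Gbp6, Krt5 and Krt14 had no value and were not analysed here, and 1 gene of the pathway lists is not reported here. Columns that match no sample numbered 0.

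A gene was tested if 2 or more libraries reached 1 FPKM. The test was that of limma 3.58.1 in R 4.3.3 (intensity trend, two-sided) on log2(FPKM + 1), with Benjamini-Hochberg adjustment over all 11831. On simulated data for these 11831 genes (5 draws), 0.6% of 2-fold and 40.2% of 4-fold changes in FPKM + 1 were recovered, with a mean of 1.8 false calls. The simulation changed a small part of the genes and took each gene's spread from these 4 libraries. Its rates therefore need not hold for the real data. A 2-fold change that did not pass is not shown to be absent. Pairing comes from the titles, which number the experiment: deviations of same-numbered libraries from their group means correlated at r = 0.189 across genes (0.300 among genes above 0 in every library), and genes are not independent. Tables were handled in Python 3.11.15 with pandas 2.3.3.

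Members described library by library were those past the threshold with or without the block, those listed at 0, the 8 others with the largest change at a mean of 1 FPKM or more, and Irf7, Irf9, Stat2, Isg15 and Usp18. Other members are given beside them to account for the whole list. Of each pathway list, genes past the threshold and up to 3 others of smallest p could be named. Ifnk, the receptor chains and the markers were chosen after their values were seen. The members and lists were chosen with earlier results of these data known. Alternatives varied the pseudocount, filter, scaling, transcript sum, zeros, block, variance estimate and libraries.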

Additional observations from a re-analysis of the deposited data

How the results depend on the processing

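Of 310 recomputed changes of single members, 268 kept their direction and their side of the threshold, 26 came to pass, 11 ceased to pass (all of them Xaf1) and 5 changed sign. Those 5 were Ddx58 at 0.028 under quantile normalization and at 0.23 and 0.02 without reporter positive experiment 1 and without reporter negative experiment 2 (range -0.61 to 0.23 with 1 library left out); Rnf213 at 0.13 on reference transcripts only; and Trim25 at 0.065 without reporter negative experiment 2. Ifi35, left out of these counts, passed in every setting that kept genes listed at 0. None of the 5 values passed, and the cause was not tested.

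The count of members called was 1 with a pseudocount of 0.1, with no filter, at 5 FPKM or more, with median-of-ratios scaling, with quantile normalization, on reference transcripts, on the most abundant transcript, and in each leave-one-out fit (range 1 to 1). It was 6 with robust variances, 6 with genes listed at 0 left out, 6 with the replicate block and 14 with both of these last changes. The replicate block with median-of-ratios scaling, chosen after seeing the data, gave 1. The count over all genes, 649, was 70 with no filter, 83 on reference transcripts, 327 on the most abundant transcript, 1254 with zeros left out, 983 with robust variances, 1338 with the replicate block, 3176 with block and zeros left out, and 43 to 224 with 1 library left out (86 and 46 without reporter positive experiment 1 and 2, 224 and 43 without reporter negative experiment 1 and 2). In the leave-one-out fits the lone library of a group is assumed to vary like the other group. Of the 649, 322 were higher and 327 lower in reporter positive cells, against 484 and 218 with median-of-ratios scaling and 426 and 261 with quantile normalization.

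The median change of tested members was -1.07 with a pseudocount of 0.1, -0.48 with no filter, -0.62 with median-of-ratios scaling (with or without the block), -0.60 with quantile normalization, -0.93 on the most abundant transcript, and -1.04 to -0.57 with 1 library left out. It was below 0 in every setting run. Depth limits the 14 untested members other than Eif2ak2, whose leading transcripts had a median coverage of 0.499 reads per base, against 5.71 for tested members.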

Other observations

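Members that lie next to each other in the genome could be set side by side from the files' mm9 positions. Ifit2 (chr19:34625184-34650909), Ifit3 (chr19:34658021-34663221) and Ifit1 (chr19:34715361-34724499) were each below in both reporter positive libraries, with differences of -0.19 and -0.40, -0.11 and -0.58, and -0.30 and -0.37 in experiments 1 and 2 on the log2(FPKM + 1) scale. The differences were -0.10 and -0.14 for Mx1 (chr16:97668642-97684514) and -0.16 and -0.06 for Mx2 (chr16:97757690-97782506), whose groups overlapped. Oasl1 and Oasl2, which are also neighbours, differed in opposite directions, and no test compared them.

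The form on which a member's reads were placed often changed between libraries. Of 35 members with a value in all 4 libraries, 10 had the same leading transcript in each and 11 had all of their FPKM on named reference transcripts. Isg15 and Cxcl10 kept a single transcript throughout.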
